A study of Mus musculus with 10 samples.

Results

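The collagen superfamily was followed in the subepithelial tissue of the trachea in mice exposed to chlorine and in unexposed mice. Its members were all genes whose symbol on the array has the form Col, a number, a and a number, which gave 44 genes among the 22180 measured. They were sorted by the class of assembly their chains form: 11 fibrillar, 9 basement membrane, 9 FACIT, 9 network and 4 transmembrane genes, with Col26a1 and Col28a1 left outside these classes. All 10 mice were males of the inbred FVB/NJ strain, 9 weeks of age. The exposed group (5 mice) had breathed 235 ppm chlorine with the whole body for 1 hr and was killed 4 days later. The unexposed group (5 mice) had no treatment, per the labels. Subepithelial mesenchyme was taken from several stained frozen sections of each trachea by laser capture. With 1 array from each mouse, precision is limited by how many arrays there were. The series title concerns fibrotic lesions of the trachea, and the question asked here is which collagen transcripts differed at this time.

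Collagens are proteins in which 3 alpha chains wind into a triple helix, and each chain has its own gene. Fibrillar collagens form the banded fibrils of connective tissue, type IV collagen forms the sheet-like scaffold of basement membranes, and FACIT collagens (fibril-associated collagens with interrupted triple helices) sit on fibril surfaces. Network-forming collagens build beaded filaments (type VI) or hexagonal lattices (types VIII and X), and transmembrane collagens stay anchored in the cell surface. In the trachea, types II, IX, X and XI belong to the cartilage rings, while types I, III, V and VI belong to the surrounding connective tissue.

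Values are log2 intensities, so that a difference of 1 is a doubling. A gene is called where its adjusted p in limma, over all genes, was under 0.05. Of the 44 collagen genes, 11 were called higher and 3 lower in exposed mice, and 30 were not called. Over all genes, 5.85% were called higher and 4.97% lower. The median log2 change of the 44 genes was -0.046, beside -0.0035 over all genes, with a range of -0.95 (Col10a1) to 1.50 (Col4a1). By class, 4 of 11 fibrillar, 3 of 9 basement membrane, 3 of 9 network, 1 of 4 transmembrane and 0 of 9 FACIT genes were called higher. The lower ones were 2 basement membrane genes and 1 network gene. For 10 genes all exposed mice lay above all unexposed mice, and for 2 they all lay below, where 5.89% and 5.06% of all genes did so. In dissected tissue, fewer cells of a type and less RNA per cell cannot be told apart. Leaving out 1 mouse at a time gave 8 to 13 genes called higher (8 without exposed mouse 4, 13 without exposed mouse 1). It gave 0 to 5 called lower (5 without exposed mouse 3, 2 without unexposed mouse 1, 1 without exposed mouse 1 or unexposed mouse 2, and 0 without any 1 of the other 6 mice). The count of lower calls thus changed with the mouse left out, and none of the 3 calls was kept in all 10 fits. Without exposed mouse 3, only Col4a4 of the 3 genes kept its call, and Col8a2, Col9a1, Col9a3 and Col11a1 were gained.

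**Figure D1:**
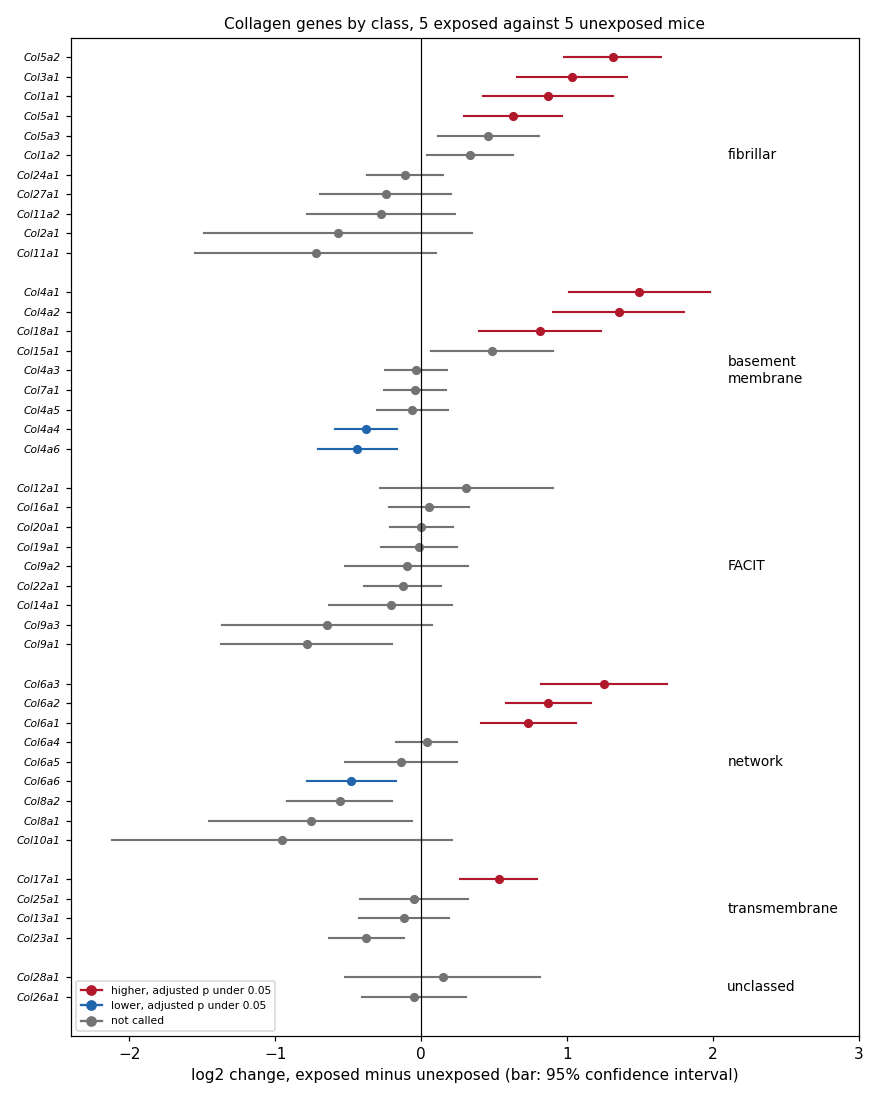
The log2 change of each of the 44 collagen genes (horizontal axis, exposed minus unexposed, 5 mice each) with its 95% confidence interval, grouped by class. The 11 genes called higher are red, the 3 called lower blue; Col4a1 and Col4a2 lie farthest to the right, and the widest intervals belong to Col10a1 and Col2a1.

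Before the values, the DNA before the start sites of 6 genes is shown, because 4 of them (Col3a1, Col6a1, Col6a2 and Col6a3) were called higher together, Col4a6 was called lower, and Col1a2 was not called although its partner chain Col1a1 was. Of the 44 genes, 35 had an entry in the promoter table taken from RefSeq (build GRCm38.p6); Col1a1, Col2a1, Col5a2, Col4a3, Col9a3, Col12a1, Col14a1, Col22a1 and Col26a1 had none. Each run reads 5′ to 3′ on the gene's strand and ends just before the annotated gene. Capitals mark matches, on either strand, to the letters CCAAT (the CCAAT box), GGGCGG (the GC box of Sp1-type factors), TATAAA (the TATA box) or TGANTCA (the AP-1 site), none of which contains another.
Col3a1, chr1:45311288-45311537, plus strand: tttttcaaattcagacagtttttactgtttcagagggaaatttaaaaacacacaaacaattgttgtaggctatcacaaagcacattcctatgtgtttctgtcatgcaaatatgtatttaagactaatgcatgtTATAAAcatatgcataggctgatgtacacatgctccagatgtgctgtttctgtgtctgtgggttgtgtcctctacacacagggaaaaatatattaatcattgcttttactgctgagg
Col1a2, chr6:4505368-4505617, plus strand: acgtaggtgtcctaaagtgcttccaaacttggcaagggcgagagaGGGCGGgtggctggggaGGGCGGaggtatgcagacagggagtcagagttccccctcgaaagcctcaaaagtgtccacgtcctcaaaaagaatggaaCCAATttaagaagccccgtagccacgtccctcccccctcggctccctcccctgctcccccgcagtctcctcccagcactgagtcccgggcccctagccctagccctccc
Col6a1, chr10:76726045-76726294, minus strand: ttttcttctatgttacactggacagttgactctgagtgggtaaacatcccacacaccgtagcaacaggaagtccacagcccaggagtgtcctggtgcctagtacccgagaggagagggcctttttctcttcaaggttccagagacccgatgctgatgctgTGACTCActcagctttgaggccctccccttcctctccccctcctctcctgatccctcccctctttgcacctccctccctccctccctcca
Col6a2, chr10:76623631-76623880, minus strand: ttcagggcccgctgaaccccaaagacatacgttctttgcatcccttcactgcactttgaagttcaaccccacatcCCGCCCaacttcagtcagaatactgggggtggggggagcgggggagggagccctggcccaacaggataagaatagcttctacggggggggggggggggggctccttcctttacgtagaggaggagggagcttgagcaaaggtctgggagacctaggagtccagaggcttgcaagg
Col6a3, chr1:90844002-90844221, minus strand: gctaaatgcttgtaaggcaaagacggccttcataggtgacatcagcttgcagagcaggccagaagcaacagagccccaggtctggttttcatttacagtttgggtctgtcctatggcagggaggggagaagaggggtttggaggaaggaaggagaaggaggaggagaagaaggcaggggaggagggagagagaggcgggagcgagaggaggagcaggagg
Col4a6, chrX:141474096-141474326, minus strand: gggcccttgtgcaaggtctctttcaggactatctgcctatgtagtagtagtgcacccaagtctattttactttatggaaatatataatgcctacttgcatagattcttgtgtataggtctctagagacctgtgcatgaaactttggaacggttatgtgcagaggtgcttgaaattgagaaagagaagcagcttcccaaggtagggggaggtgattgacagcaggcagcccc
Col3a1 held 1 TATAAA match and a GC content of 35.2%, Col1a2 held 1 CCAAT and 2 GGGCGG matches, Col6a1 held 1 TGANTCA match and Col6a2 held 1 GGGCGG match. None of the searched letters occurred in the windows of Col6a3 and Col4a6, which were shortened to 220 and 231 bases so as to hold no annotated transcript; in the table's full 250 bases Col4a6 held GGGCGG. Thus the 3 genes of the type VI trimer, whose transcripts were called higher together, did not share any of these motifs in the windows shown.

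Over the 250 bases before the start in the promoter table, GGGCGG was found in 21 of 35 collagen genes (60.0%), beside 33.0% of 27025 genes in the table. The median GC content of these 250 bases was 59.2% in the 35 collagen genes and 52.0% in the table, and the part of base composition in the count was not tested. Among the 9 collagen genes with an entry that were called higher, 4 (44.4%) held it, and among the 23 that were not called, 15 (65.2%). CCAAT was found in 12 of 35 (34.3%, beside 34.5%), TATAAA in 5 of 35 (14.3%, beside 13.0%) and TGANTCA in 1 of 35 (2.86%, beside 6.85%), which was Col6a1. These matches are descriptions of letters and were not tested.

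Type I collagen, the main fibril protein of connective tissue, is built from 2 alpha-1 chains and 1 alpha-2 chain, encoded by Col1a1 and Col1a2. The log2 values of Col1a1 were 9.17, 9.71, 10.47, 9.93 and 9.41 in exposed mice 1 to 5 and 8.87, 8.71, 9.02, 8.94 and 8.80 in unexposed mice 1 to 5. Every exposed mouse was above every unexposed mouse, with exposed mouse 3 highest and exposed mouse 1 closest to the unexposed ones. Col1a1 rose 1.83-fold, from 8.87 ± 0.12 to 9.74 ± 0.50 (SD, n = 5 each), or by 0.87 on the log2 scale, SE 0.20, adjusted p = 0.0191. This call ended without exposed mouse 4 (adjusted p = 0.0501, with a range of 0.00486 to 0.0501 over the 10 mice left out). Col1a2 had values of 10.22, 10.63, 10.98, 10.57 and 10.45 in exposed mice 1 to 5 and 10.14, 10.24, 10.42, 10.26 and 10.10 in unexposed mice 1 to 5, and the groups overlapped. It was not called (0.34 on the log2 scale, SE 0.13, adjusted p = 0.142, 95% confidence interval 0.04 to 0.63), although it was called without exposed mouse 1 (adjusted p = 0.0485). The difference between the chains, Col1a1 minus Col1a2 within each mouse, changed by 0.53, from -1.36 ± 0.11 to -0.83 ± 0.24 (SD, n = 5 each; exact permutation p = 0.00794, adjusted p = 0.0238). Here 0.00794 is the smallest p that relabelling 10 mice can give, and the adjustment covers the 15 pairs of chains compared. Since probe sets differ in brightness, such a difference does not show which chain was more abundant. Probe sets can also give unequal changes for 1 gene, as those of Col1a2 did (0.48 and 0.20). For all 15 pairs, a change in the difference is thus one between probe set values, and their response to RNA was not tested. The difference Col1a1 minus Col1a2 stood higher in each of the 5 exposed mice than in any unexposed mouse.

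Type III collagen, a homotrimer of Col3a1 chains, makes the thinner fibrils of pliable tissue and early wounds. The values of Col3a1 were 10.62, 11.14, 11.54, 11.03 and 10.74 in exposed mice 1 to 5 and 9.78, 9.88, 10.33, 10.05 and 9.85 in unexposed mice 1 to 5. The groups did not overlap, and Col3a1 rose 2.05-fold (1.03 on the log2 scale, SE 0.17, adjusted p = 0.00295), with adjusted p between 0.00162 and 0.0105 over the mice left out. The change of Col3a1 minus that of Col1a1 was 0.17 (exact permutation, adjusted p = 0.195), which missed the threshold.

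Type V collagen chains help to start type I fibrils and limit their width. Col5a2 showed the largest change of the fibrillar class, with values of 7.71, 8.34, 8.52, 7.97 and 7.97 in exposed mice 1 to 5 and 6.61, 6.93, 6.99, 6.70 and 6.72 in unexposed mice 1 to 5. All exposed mice stood above all unexposed mice by at least the gap between 7.71 and 6.99. Col5a2 rose 2.48-fold (1.31 on the log2 scale, SE 0.15, adjusted p = 0.000331). Col5a1, the chain present in most type V trimers, had values of 6.66, 6.98, 7.46, 7.07 and 6.63 in exposed mice 1 to 5 and 6.18, 6.40, 6.51, 6.27 and 6.28 in unexposed mice 1 to 5, again with no overlap. It rose 1.55-fold (0.63 on the log2 scale, SE 0.15, adjusted p = 0.0223), and was no longer called when exposed mouse 4 or unexposed mouse 1, 4 or 5 was dropped (adjusted p between 0.0127 and 0.0585). The 2 probe sets of Col5a1 gave log2 changes of 0.71 and 0.55. The third chain, Col5a3, overlapped between groups, with 5.43, 5.73, 6.18, 6.20 and 5.58 in exposed and 5.25, 5.17, 5.38, 5.50 and 5.50 in unexposed mice. It was not called (0.46 on the log2 scale, SE 0.16, adjusted p = 0.0928) unless exposed mouse 1 was left out (adjusted p = 0.034). The change of Col5a1 was smaller than that of Col5a2 in the same mice, with a difference of -0.68 (exact permutation, adjusted p = 0.0238). The change of Col5a3 was not shown to differ from that of Col5a1, with -0.17 (exact permutation, adjusted p = 0.23).

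The other fibrillar genes were Col24a1 (-0.11) and Col27a1 (-0.24), a fibrillar chain of developing cartilage, neither called (adjusted p = 0.64 and 0.529), and the cartilage chains Col2a1, Col11a1 and Col11a2, described with the cartilage collagens. The probe sets of Col1a2, a pair like those of Col5a1, gave log2 changes of 0.48 and 0.20, neither called when tested alone (adjusted p = 0.123 and 0.278).

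**Figure D2:**
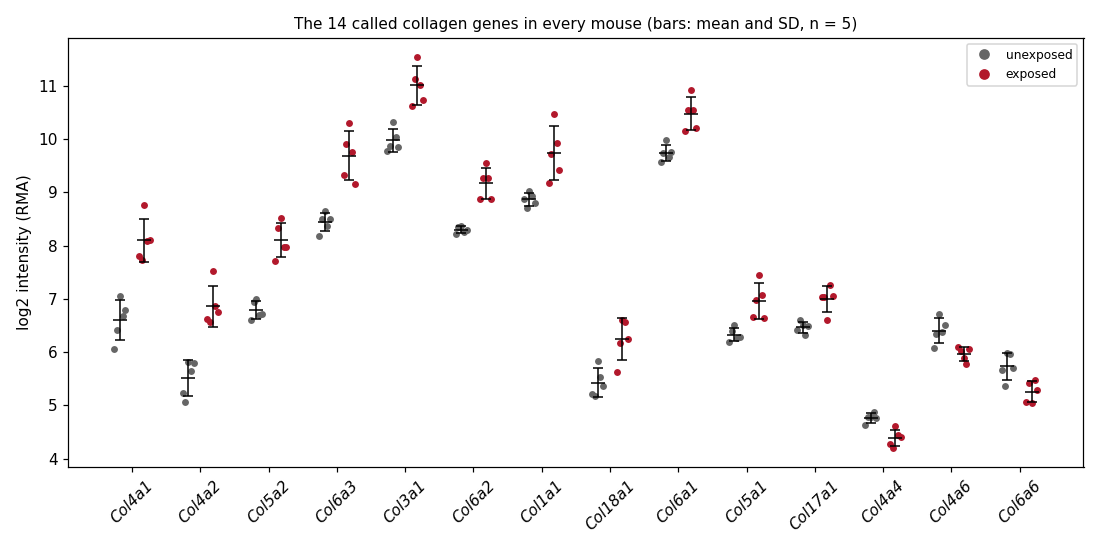
Log2 intensity (vertical axis) of the 14 called collagen genes in each of the 5 unexposed (grey) and 5 exposed (red) mice, with bars for the mean and SD, ordered by log2 change. The groups stand apart for 10 of the 11 genes called higher and for Col4a4; they overlap for Col18a1, Col4a6 and Col6a6.

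Type VI collagen forms beaded microfilaments around cells from a trimer of alpha-1, alpha-2 and alpha-3 chains. All 3 of these genes rose, with no overlap between groups. Col6a3, the longest chain of that trimer, had values of 9.32, 9.91, 10.31, 9.77 and 9.17 in exposed mice 1 to 5 and 8.19, 8.50, 8.64, 8.37 and 8.49 in unexposed mice 1 to 5 and rose 2.38-fold (1.25 on the log2 scale, SE 0.20, adjusted p = 0.00196). Col6a2 had values of 8.88, 9.27, 9.56, 9.26 and 8.88 in exposed mice 1 to 5 and 8.22, 8.35, 8.37, 8.25 and 8.29 in unexposed mice 1 to 5 and rose 1.83-fold (0.87 on the log2 scale, SE 0.13, adjusted p = 0.00168). Col6a1 had values of 10.15, 10.54, 10.93, 10.55 and 10.21 in exposed mice 1 to 5 and 9.56, 9.74, 9.98, 9.67 and 9.76 in unexposed mice 1 to 5 and rose 1.66-fold (0.73 on the log2 scale, SE 0.15, adjusted p = 0.00864), and its 2 probe sets gave 0.80 and 0.67. Exposed mouse 3 was highest for each, and all 3 kept their calls whichever mouse was left out. Col6a3 changed more than Col6a1, as the difference between them changed by 0.52, from -1.30 ± 0.05 to -0.78 ± 0.17 (SD, n = 5 each; exact permutation p = 0.00794, adjusted p = 0.0238). The averaged value of Col6a1 changed less than that of Col6a2, with a difference of -0.14 (exact permutation, adjusted p = 0.034). This smaller difference did not pass in 6 of the 10 fits with a mouse left out (adjusted p 0.0238 to 0.068). The 2 probe sets of Col6a1 (0.80 and 0.67) differed by a like amount, so it cannot be read as a difference between the genes.

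The 3 further type VI genes encode chains that can take the place of alpha-3. Col6a6 had values of 5.06, 5.42, 5.05, 5.47 and 5.29 in exposed mice 1 to 5 and 5.66, 5.37, 5.99, 5.96 and 5.71 in unexposed mice 1 to 5, with exposed mice 2 and 4 inside the unexposed range. It fell by 0.48 on the log2 scale (SE 0.14, adjusted p = 0.0486). Its call was kept in 1 of the 10 fits with a mouse left out, that without unexposed mouse 2 (adjusted p between 0.0232 and 0.114). Col6a4 (0.04, 95% confidence interval -0.17 to 0.25) and Col6a5 (-0.14, -0.52 to 0.25) were not called. Both stood below the array medians of 5.10 to 5.18 in every mouse, where no detection limit is at hand.

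Of the other network genes, none was called. Col8a1 and Col8a2 encode the chains of type VIII collagen, found around blood vessels. Col8a1 had values of 8.29, 8.00, 8.82, 7.49 and 7.21 in exposed and 8.88, 9.26, 8.14, 8.19 and 9.12 in unexposed mice (-0.76 on the log2 scale, SE 0.32, adjusted p = 0.166). Col8a2 had 4.70, 4.06, 4.99, 4.82 and 4.79 and 5.39, 5.35, 5.23, 4.94 and 5.24 (-0.56 on the log2 scale, SE 0.17, adjusted p = 0.0527), which lay just outside the threshold. The Col8a2 log2 change passed it without exposed mouse 3 (adjusted p = 0.0337) and, with all mice kept, under the trended robust eBayes (0.0499), array weights (0.0273) and the pan-epithelial covariate (0.0492). Both estimates were below 0, and the change in the difference between the chains was -0.20 (exact permutation, adjusted p = 0.611). Col8a2 stood below the array medians of 5.10 to 5.18 in every exposed mouse, where no detection limit is at hand.

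Type IV collagen is the scaffold of basement membranes, and its 6 genes lie in 3 head-to-head pairs: Col4a1 with Col4a2, Col4a3 with Col4a4, and Col4a5 with Col4a6. The 2 most widespread chains, Col4a1 and Col4a2, showed the 2 largest log2 changes of the whole superfamily. Col4a1 had values of 7.81, 7.73, 8.76, 8.09 and 8.11 in exposed mice 1 to 5 and 6.06, 6.42, 7.06, 6.67 and 6.79 in unexposed mice 1 to 5 and rose 2.82-fold (1.50 on the log2 scale, SE 0.22, adjusted p = 0.00133). Col4a2 had values of 6.61, 6.57, 7.52, 6.87 and 6.75 in exposed mice 1 to 5 and 5.23, 5.07, 5.81, 5.64 and 5.80 in unexposed mice 1 to 5 and rose 2.56-fold (1.36 on the log2 scale, SE 0.20, adjusted p = 0.00159). For each gene the lowest exposed mouse was above the highest unexposed mouse, and the calls held whichever mouse was left out (adjusted p 0.0013 to 0.00606 over both). In RefSeq the 2 transcripts start on opposite strands and share their first 22 bases, so that the windows before the starts lie on either side of this stretch and do not overlap. The change in the difference Col4a1 minus Col4a2 was 0.14 (exact permutation, adjusted p = 0.23).

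None of the other 4 type IV genes was called higher. Col4a4, which trimerises with Col4a3 and Col4a5 in specialised basement membranes, had values of 4.27, 4.20, 4.60, 4.44 and 4.40 in exposed mice 1 to 5 and 4.62, 4.79, 4.78, 4.87 and 4.76 in unexposed mice 1 to 5. All exposed mice stood below all unexposed mice, the nearest being exposed mouse 3 at 4.60 beside unexposed mouse 1 at 4.62. Col4a4 fell by 0.38 on the log2 scale (SE 0.10, adjusted p = 0.0295), with levels below the array medians in every mouse. Its neighbour Col4a3 was not called (-0.03, 95% confidence interval -0.25 to 0.18), and the change in the difference between the 2 genes was 0.35 (exact permutation, adjusted p = 0.0595), which missed the threshold and passed it without exposed mouse 3 (adjusted p = 0.0198). Col4a6, a chain of the basement membranes of epithelium and smooth muscle, had values of 6.10, 6.02, 5.88, 5.78 and 6.05 in exposed mice 1 to 5 and 6.07, 6.34, 6.71, 6.38 and 6.51 in unexposed mice 1 to 5, with exposed mouse 1 just above unexposed mouse 1. It fell by 0.44 on the log2 scale (SE 0.12, adjusted p = 0.0433). Its partner Col4a5 was not called (-0.06, 95% confidence interval -0.30 to 0.18).

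The pair Col4a5 and Col4a6, whose annotated starts are 1343 bases apart on the X chromosome, thus gave unequal changes. The difference Col4a5 minus Col4a6 changed by 0.38, from -0.17 ± 0.14 to 0.21 ± 0.08 (SD, n = 5 each; exact permutation p = 0.00794, adjusted p = 0.0238). The difference Col4a1 minus Col4a5 changed by 1.56, from 0.36 ± 0.27 to 1.92 ± 0.46 (SD, n = 5 each; exact permutation p = 0.00794, adjusted p = 0.0238), which was 1.61, 1.45, 2.60, 2.14 and 1.80 in exposed mice 1 to 5 and -0.03, 0.20, 0.51, 0.51 and 0.63 in unexposed mice 1 to 5. This difference was higher in every exposed mouse than in any unexposed mouse. It follows from the values of the 2 genes given above, with Col4a1 called higher and Col4a5 not called, and adds no separate support. The calls of Col4a4 and Col4a6 were each lost in 8 of the 10 fits with a mouse left out. Col4a4 kept its call when exposed mouse 3 or unexposed mouse 1 was dropped (adjusted p between 0.0141 and 0.074 over the 10 fits). Col4a6 kept it when mouse 1 of either group was dropped (adjusted p between 0.0211 and 0.102).

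Of the other basement membrane genes, Col18a1, which carries the endostatin fragment at its end, was called higher. Its values were 5.62, 6.16, 6.60, 6.56 and 6.25 in exposed mice 1 to 5 and 5.21, 5.18, 5.84, 5.53 and 5.37 in unexposed mice 1 to 5, with exposed mouse 1 inside the unexposed range, and it rose 1.76-fold (0.82 on the log2 scale, SE 0.19, adjusted p = 0.0193). Dropping exposed mouse 4, unexposed mouse 1 or unexposed mouse 2 ended the call (adjusted p between 0.00255 and 0.0523). Col15a1, the related chain of vessel and muscle basement membranes, was not called (0.49 on the log2 scale, SE 0.19, adjusted p = 0.136), and its change was not shown to differ from that of Col18a1, with a difference of -0.33 (exact permutation, adjusted p = 0.119). Col7a1, which forms the anchoring fibrils under squamous epithelium, was not called either (-0.04, 95% confidence interval -0.25 to 0.17). Endothelial cells make much type IV and type XVIII collagen, and of 6 endothelial markers Tek was called higher (0.46, a call lost in 8 of the 10 fits with a mouse left out, adjusted p 0.0143 to 0.114) and 5 were not called. The endothelial mean was 6.87 to 7.71 over exposed mice and 6.56 to 7.17 over unexposed ones, and its part in these changes was not tested.

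**Figure D3:**
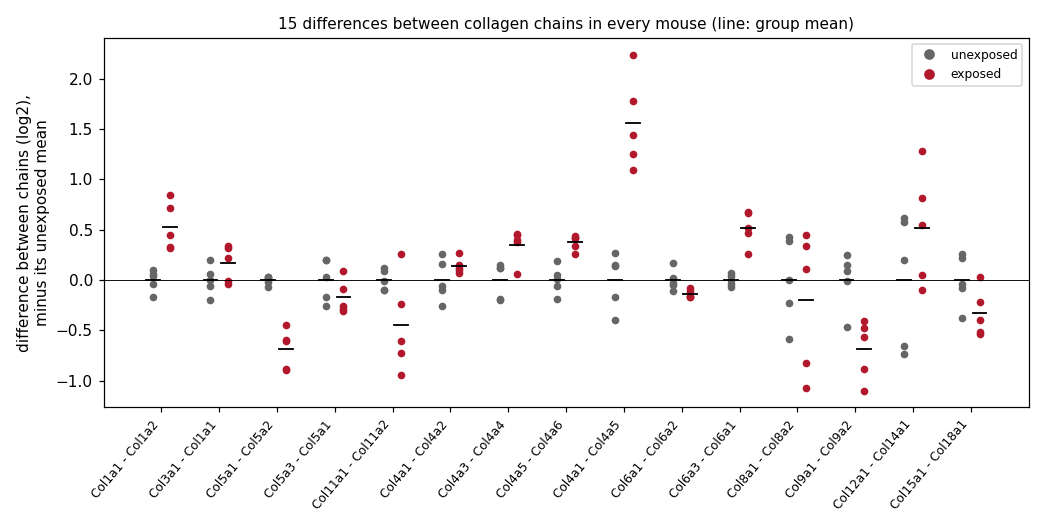
The difference in log2 value between 2 collagen chains of the same mouse (vertical axis, set to 0 at the unexposed mean) for 15 pairs, with 5 unexposed (grey) and 5 exposed (red) mice and a line at each group mean. The groups stand apart for Col1a1 against Col1a2, Col5a1 against Col5a2, Col4a5 against Col4a6, Col4a1 against Col4a5 and Col6a3 against Col6a1.

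Col17a1, a transmembrane collagen of the hemidesmosomes that hold basal epithelial cells to their basement membrane, had values of 7.04, 7.04, 6.60, 7.26 and 7.06 in exposed mice 1 to 5 and 6.42, 6.60, 6.51, 6.33 and 6.48 in unexposed mice 1 to 5. It rose 1.45-fold (0.53 on the log2 scale, SE 0.12, adjusted p = 0.0164), with exposed mouse 3 and unexposed mouse 2 level at 6.60 when rounded. Exposed mouse 3 also held the lowest pan-epithelial mean, 8.27, where the other exposed mice held 8.93 to 9.26. Of 6 markers shared by epithelial cells none was called, and their mean was 8.27 to 9.26 over exposed mice and 8.68 to 9.14 over unexposed ones, above the array medians although the label is mesenchyme. Of 5 measured basal cell markers 2 were called higher, Krt14 (4.31) and Dsg3 (3.96). The other 3, Krt15 (-0.52), Trp63 (-0.40) and Ngfr (-0.12), were not called and had log2 changes below 0. The mean of the 5, in which Krt14 and Dsg3 are the only ones with a log2 change above 0, was 7.43 to 8.79 over exposed mice and 6.76 to 7.29 over unexposed ones. With the pan-epithelial mean as covariate, the Col17a1 log2 change was 0.54 (adjusted p = 0.00697), and over all its alternatives the adjusted p ran from 0.00198 to 0.202. It was not called with the cartilage marker mean as covariate (adjusted p = 0.202). The part of basal cells in the change was not tested.

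The other transmembrane genes were not called. Col23a1 was nearest to the threshold, with medians of 5.75 in exposed and 6.14 in unexposed mice. Its groups did not overlap, all exposed mice being lower (-0.37 on the log2 scale, SE 0.12, adjusted p = 0.0657), and its adjusted p stayed above the threshold with any 1 mouse left out (0.0545 to 0.148). The Col23a1 log2 change passed it among genes with a mean log2 value of at least 5 (adjusted p = 0.0374). Col13a1, a collagen of cell adhesions, had a log2 change of -0.12 (95% confidence interval -0.42 to 0.19). Col25a1, a collagen of nerve and muscle, had one of -0.05 (-0.42 to 0.32). Outside the classes, the log2 change was -0.05 for Col26a1 and, for Col28a1, a collagen of Schwann cells, 0.15 (adjusted p = 0.897 and 0.828). Of 4 measured Schwann cell markers none was called.

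No FACIT gene was called. Col12a1, which coats fibrils under tension, had values of 7.49, 7.54, 8.58, 7.89 and 6.95 in exposed and 7.50, 7.72, 7.24, 6.83 and 7.62 in unexposed mice (0.31 on the log2 scale, SE 0.27, adjusted p = 0.546). Exposed mouse 3 stood above all other mice, and without it the log2 change was 0.090. Col14a1, a related coat of mature fibrils, had a log2 change of -0.21 (95% confidence interval -0.63 to 0.21), and the change in the difference between these genes was 0.52 (exact permutation, adjusted p = 0.23). Col16a1, Col19a1, Col20a1 and Col22a1 had log2 changes of 0.05, -0.02, 0.0020 and -0.12, and their intervals all included 0.

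The collagens of cartilage are spread over 3 classes: the fibrillar chains Col2a1, Col11a1 and Col11a2, the FACIT chains Col9a1, Col9a2 and Col9a3, and the network chain Col10a1, known from hypertrophic cartilage. These 7 were grouped after their values were seen, and none was called. All 7 had log2 changes below 0 (median -0.65), beside 25 of all 44 collagen genes, and the shared sign was not tested. Exposed mice differed widely among themselves. Col2a1, the main cartilage collagen, had values of 6.79, 6.20, 8.10, 6.63 and 5.21 in exposed mice 1 to 5 and 6.79, 7.65, 7.18, 6.82 and 7.34 in unexposed mice 1 to 5 (-0.57 on the log2 scale, SE 0.42, adjusted p = 0.463). Col10a1 had values of 10.56, 9.69, 11.81, 10.07 and 8.23 in exposed mice 1 to 5 and 10.89, 11.54, 11.06, 10.22 and 11.42 in unexposed mice 1 to 5 (-0.95 on the log2 scale, SE 0.53, adjusted p = 0.31). Exposed mouse 3 was above every unexposed mouse in both genes, and exposed mouse 5 was far below all others. The same order held through the group: exposed mouse 3 was the highest and exposed mouse 5 the lowest exposed mouse for all 7 genes. Exposed mice 2 and 5 were below every unexposed mouse for all 7, exposed mouse 4 for 5 and exposed mouse 1 for 2.

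The remaining cartilage chains gave log2 changes of -0.72 (Col11a1), -0.27 (Col11a2), -0.78 (Col9a1), -0.10 (Col9a2) and -0.65 (Col9a3), with adjusted p of 0.274, 0.532, 0.0888, 0.813 and 0.262. Without exposed mouse 3, Col9a1 (adjusted p = 0.0149), Col9a3 (-0.99, adjusted p = 0.00662) and Col11a1 (-1.06, adjusted p = 0.035) passed the threshold, and Col2a1 (-0.95) and Col10a1 (-1.39) did not. Without exposed mouse 5, the log2 change was -0.23 for Col2a1, -0.49 for Col10a1 and -0.48 for Col11a1. Within type IX, Col9a1 changed more than Col9a2, as their difference changed by -0.68, from 0.06 ± 0.28 to -0.62 ± 0.29 (SD, n = 5 each; exact permutation p = 0.0159, adjusted p = 0.034), though not without exposed mouse 1, 2 or 5 (adjusted p 0.0238 to 0.0595). For Col11a1 against Col11a2 the change in difference was -0.45 (exact permutation, adjusted p = 0.143), and passed without exposed mouse 3 (adjusted p = 0.0198).

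Of 10 cartilage markers that are no collagens 4 were called lower, Cnmd (-2.41), which encodes chondromodulin, the cartilage matrix proteins Matn1 (-1.56) and Matn3 (-1.19), and Chad (-1.04), and none higher. Matn3 and Chad lost their calls in 6 and 8 of the 10 fits with a mouse left out (adjusted p 0.0101 to 0.0652 and 0.0154 to 0.107). The mean of the 10 markers was 8.57, 7.84, 9.26, 8.03 and 6.85 in exposed mice 1 to 5 and 9.19, 9.91, 9.17, 8.70 and 9.76 in unexposed mice 1 to 5. The mean of the 7 cartilage collagens was 6.96, 6.51, 8.01, 6.80 and 5.92 and 7.23, 7.86, 7.30, 7.02 and 7.67. Exposed mouse 5 was lowest on both, and exposed mouse 3 was the one exposed mouse within the unexposed range on the markers and the highest of all mice on the collagens. With the marker mean as a covariate, 6 of the 7 cartilage collagens had log2 changes above 0, Col9a1 being the exception (-0.11), and Col10a1 was called higher (0.72, SE 0.17, adjusted p = 0.0409). The marker mean itself differed between the groups, as exposed mice 1, 2, 4 and 5 lay below every unexposed mouse. A fit with it cannot separate exposure from the marker level, so neither these signs nor the Col10a1 call is read as a rise. The same limit holds for every other gene in this fit, so calls kept, gained or lost in it are not read as adjusted for cartilage. With this covariate 10 collagen genes were called higher and 1 lower. Col3a1, Col4a1, Col4a2, Col5a1, Col5a2, Col6a1, Col6a2 and Col6a3 were still called higher (Col4a1 by 1.69, Col5a2 by 1.47 and Col6a3 by 1.62), Col12a1 was called higher (1.06, adjusted p = 0.016), and Col1a1 (1.11, adjusted p = 0.0532), Col18a1 (0.77) and Col17a1 (0.42) were not called. In that fit 2.2% of all genes were called higher and 1.94% lower. How much cartilage each dissection held was not measured, and its part in these values was not tested.

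**Figure D4:**
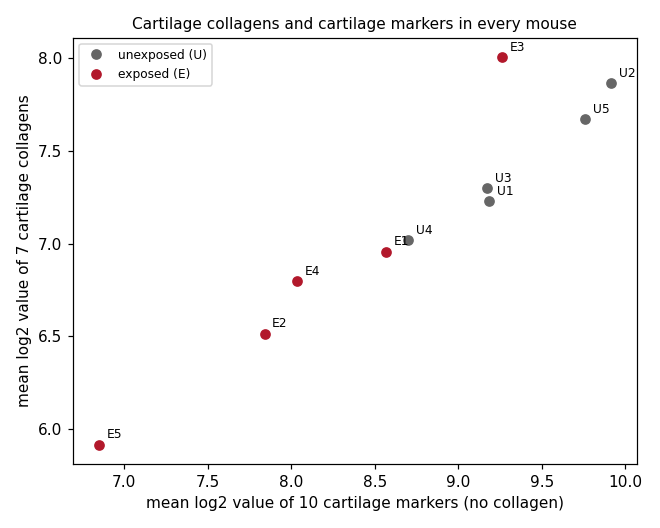
The mean log2 value of 7 cartilage collagens (vertical axis) against that of 10 cartilage markers that are no collagens (horizontal axis) for each mouse. Exposed mice 5, 2, 4 and 1 lie below and to the left of the unexposed mice, and exposed mouse 3 lies at 8.01 on the collagen axis, above all unexposed mice.

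Individual exposed mice differed across the superfamily in a repeated way. Exposed mouse 3 held the highest exposed value for 31 of the 44 genes, among them 10 of the 11 genes called higher, the exception being Col17a1. Exposed mouse 1 held the lowest exposed value for 6 of those 11. Exposed mouse 3 also held the highest mean of 8 fibroblast markers, 10.08, where the other exposed mice held 9.61 to 9.90 and the unexposed mice 9.29 to 9.74. Of these fibroblast markers, the receptor gene Pdgfra (0.68) and the transcription factor Tcf21 (0.71) were called higher. The other 6, among them Dcn, the proteoglycan decorin (-0.14), were not called. Dropping unexposed mouse 1 or 5 ended the call of Pdgfra (adjusted p between 0.0151 and 0.0541). None of 6 smooth muscle markers was called. How far these cell type differences account for the collagen values was not tested. Without exposed mouse 3 the same 11 collagen genes were called higher.

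**Figure D5:**
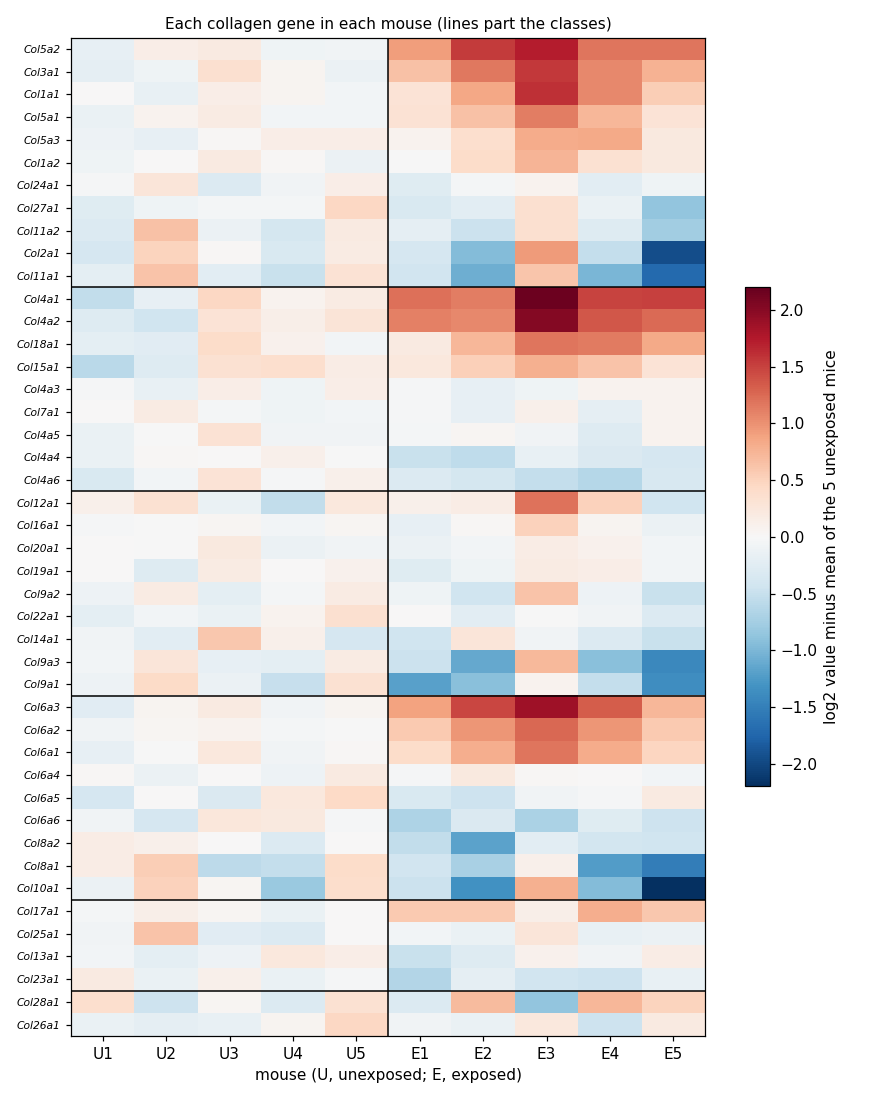
Each collagen gene (rows, grouped by class) in each mouse (columns; U, unexposed; E, exposed) as the log2 value minus the mean of the 5 unexposed mice, red above and blue below. Exposed mouse 3 is the highest of the exposed columns in 31 of 44 rows, and the cartilage chains Col2a1, Col11a1 and Col10a1 are bluest in exposed mouse 5.

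Genes that fold, trim, bind and break collagen were read from 4 lists of 49 genes, of which 44 were measured. Of these, 11 were called higher and 3 lower. Over all genes, 5.85% were called higher and 4.97% lower, and no list was tested against these shares. Among 18 folding and modification genes, 2 rose, P4ha3 (1.78), a subunit of the enzyme that hydroxylates proline in collagen, and Mia2 (1.65), which takes part in the export of large cargo from the endoplasmic reticulum. The sister subunits P4ha1 (-0.61) and P4ha2 (-0.53) fell. Mia2 stood at 3.45 to 4.01 in unexposed mice, below the array medians of 5.10 to 5.18, and at 4.97 to 5.95 in exposed mice. Serpinh1, the collagen chaperone, was not called (-0.01, 95% confidence interval -0.42 to 0.39). Among 11 processing and crosslinking genes, Lox (1.00) and Loxl1 (0.71), oxidases that crosslink fibrils, rose. So did Bmp1 (0.57), a protease that trims procollagen, and Pcolce (0.57), which enhances that cleavage, while Pcolce2 fell (-0.90). The median log2 changes of these lists were 0.26 and 0.24.

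Of 9 measured collagen receptors only Itgb1, the beta-1 integrin subunit shared by collagen-binding integrins, rose (0.42 on the log2 scale, SE 0.09, adjusted p = 0.0133), while the others, among them Ddr1 (-0.10) and Ddr2 (0.34), were not called. Of 6 genes of collagen breakdown, 4 rose: the membrane-bound collagenase Mmp14 (1.51, adjusted p = 5.45e-05), the neutrophil collagenase Mmp8 (1.11), the cysteine protease Ctsk (0.62) and the gelatinase Mmp2 (0.45). The median log2 changes were 0.17 for the receptors and 0.53 for the breakdown genes. Mmp9 (0.28) and Mmp13 (-0.39) were not called. The level of Mmp8 was low, with 3.38 to 3.66 in unexposed mice, below the array medians, and 3.80 to 5.60 in exposed mice. Leaving out 1 mouse ended the calls of P4ha1 (7 of 10 fits, adjusted p 0.042 to 0.112), P4ha2 (9 fits, 0.00973 to 0.107), Bmp1 (6 fits, 0.0178 to 0.081), Lox (2 fits, 0.00854 to 0.0617), Mmp2 (5 fits, 0.0149 to 0.0643) and Ctsk (6 fits, 0.00788 to 0.0636). Macrophages also make such proteases, and of 6 macrophage markers 5 were called higher, with means of 7.77 to 8.70 over exposed mice and 6.75 to 7.41 over unexposed ones, and their part in these values was not tested.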

How the data were processed

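Expression was measured on 1 Affymetrix array per mouse, in 5 exposed and 5 unexposed mice. The deposited values are log2 intensities. Per the submitters' processing notes, RMA and Partek 6.6 were used. Settings and genome build are not given in these sources, and the log base was taken from the values. The table held 41345 probe sets, with 23521 paired by the platform annotation with a single gene symbol, 1814 with more than 1, and 16010 unlisted. A gene's value was the mean of its single-symbol probe sets, which gave 22180 genes. The 44 collagen genes had 47 such probe sets, with Col1a2, Col5a1 and Col6a1 having 2 each; 1 further probe set naming Col6a1 with other genes was not used. No filter on low values was applied, and without scanner files no gene could be called below background.

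The comparison used lmFit and eBayes of limma 3.58.1 (R 4.3.3), two-sided and with no covariate. P-values were adjusted by Benjamini-Hochberg over all genes, and genes called at an adjusted p under 0.05. The fit was tested on simulated data. Differences between 15 pairs of chains were tested between groups by exact permutation of the mice (two-sided), adjusted over the 15. Classes follow the usual grouping of chains. Every collagen gene was accounted for, and pathway genes were named among those called, up to 3 rises and 3 falls a list, with Serpinh1, Ddr1, Ddr2, Mmp9, Mmp13 and one further rise in each of 2 lists added after their values were seen. The members, lists and pairs were chosen with earlier results of these data known, and the cartilage collagens were grouped after their values were seen. Alternatives were another quantile normalization, median centring, filters at a mean log2 value of 5 or 6, the brightest probe set, each probe set alone, array weights, a trended robust eBayes, a block for the mouse number, leaving out each mouse, an adjusted p under 0.01, and cartilage or pan-epithelial means as covariates. Python 3.11.15, pandas 2.3.3 and matplotlib 3.10.9 were used.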

Additional observations from a re-analysis of the deposited data

Results flagged for a closer look

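Each of the 44 genes was checked in each group of 5 mice for a single mouse far from the others, which chance alone flags in about 1 of 20 groups, and 2 of 88 groups were marked. Col25a1 stood at 6.25 in exposed mouse 3, where the other exposed mice held 5.81 to 5.92. Col4a5 stood at 6.55 in unexposed mouse 3, where the other unexposed mice held 6.09 to 6.22. Without that mouse the log2 change of Col4a5 was 0.019, and it was not called in either case.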

How the results depend on the processing

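The count of 11 genes called higher was 10 to 11 under the normalizations, filters, probe set choices, eBayes settings, weights, block and covariates tried, 7 at an adjusted p under 0.01, and 8 to 13 with 1 mouse left out. Under the filter at a mean log2 value of 6, Col18a1 was removed before testing. With the cartilage covariate, 8 of the 10 were shared with the 11, as Col1a1, Col17a1 and Col18a1 were lost and Col10a1 and Col12a1 gained. That fit cannot separate exposure from the marker level, so these changes of call are not read as adjusted for cartilage. The count of 3 called lower was less stable. It was 4 with the trended robust eBayes, array weights or the pan-epithelial covariate, and 2 with median centring. It was 1 with genes of a mean log2 value of at least 6, where 25 collagen genes were tested. That filter removed Col4a4 and Col6a6 before testing, and Col4a6 kept its call (limma, adjusted p = 0.0206). The count was 1 with the cartilage mean as a covariate, 0 at an adjusted p under 0.01 and 0 to 5 with 1 mouse left out. Among genes with a mean log2 value of at least 5 the count stayed at 3, with Col23a1 gained and Col4a4 removed by the filter before testing. Mouse numbers are shared by the groups, but same-numbered mice did not deviate together (correlations -0.049 to 0.125, and no mouse matched best with its own number). With the mouse number as a replicate block, 10 genes were called higher, Col17a1 being lost, and 0 lower. Of 853 values of single collagen genes under the alternatives, 759 kept direction and side of the threshold, 45 lost a call, 13 gained one and 36 turned direction. With the cartilage mean as a covariate the turned values were those of Col2a1 (0.70), Col11a1 (0.44), Col11a2 (0.38), Col24a1 (0.016), Col27a1 (0.24), Col7a1 (0.021), Col9a2 (0.40), Col9a3 (0.29), Col22a1 (0.041), Col8a1 (0.14), Col10a1 (0.72), Col25a1 (0.28) and Col28a1 (-0.44); the cause was not tested. The Col19a1 log2 change turned with renewed quantile normalization (0.0075) and median centring (0.00078), and the Col20a1 log2 change with array weights (-0.032) and the pan-epithelial covariate (-0.0034). With 1 mouse left out, the values of 9 genes and 1 pair turned direction in some of the fits. Over all fits, turned or not, they ranged from -0.076 to 0.0053 for Col4a3, -0.096 to 0.019 for Col4a5 and -0.080 to 0.0021 for Col7a1. The range was -0.060 to 0.11 for Col16a1, -0.089 to 0.045 for Col19a1, -0.040 to 0.055 for Col20a1 and -0.0084 to 0.088 for Col6a4. It was -0.13 to 0.11 for Col25a1, -0.12 to 0.065 for Col26a1 and -0.36 to 0.021 for Col8a1 minus Col8a2. None of these was called in the main comparison. Low intensities have no detection limit here, and 36 of the 44 genes had a mean log2 value of at least 5.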
